A study of Mus musculus with 36 samples.

Results

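The difference between the adult and the juvenile effect of the Scnn1b transgene on lung lavage macrophages was measured, that is Scnn1b-Tg minus WT at postnatal day (PND) 42 minus the same difference at PND 10, both in specific-pathogen-free (SPF) housing. The 16 arrays were chosen by their labels for genotype, age and housing, 4 in each of 4 groups, out of 36 arrays in the series. All mice were C57Bl/6N Tac, and the groups were WT at PND 10, Scnn1b-Tg at PND 10, WT at PND 42 and Scnn1b-Tg at PND 42. The transgene drives Scnn1b, which encodes a subunit of the sodium channel ENaC, from the promoter of a club cell gene, that is in the airway lining. Each PND 10 array held RNA of lavage cells pooled from 3 pups and each PND 42 array that of a single mouse, so that age and pooling cannot be told apart. Lavage cells were depleted of Ly-6G-positive granulocytes before 12 ng of RNA was amplified for each array. A further 6 arrays of germ-free (GF) adults, 3 of each genotype, stand outside the difference, though not outside the fit, and serve as a second adult measure.

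Airway macrophages clear particles, surfactant and dying cells, and they take on different states according to the signals around them. Under IL-4 and IL-13 they enter alternative activation, with arginase, resistin-like molecules and chemokines for eosinophils and T cells, whereas microbial products and TNF drive an inflammatory state with pattern receptors, cytokines and neutrophil chemokines. In Scnn1b-Tg mice excess sodium uptake dries the airway surface, and mucus stays in the airways from early life onward. A genotype effect that changes with age can come from a gain or loss in Scnn1b-Tg cells, from the opposite change in WT cells, or from both, and these cases are kept apart below.

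The values are log2 intensities, which ran from 1.86 to 13.2 in the 16 arrays, with array medians between 3.73 and 3.85, so that a value at or under these medians is read as near background. Differences are given on the log2 scale as measured, and against a group near background they depend on the floor of the array, so that no fold is given there and their sizes rank measured intensities only. The mean level of 10 macrophage markers lay between 9.85 and 10.1 in all 16 arrays, and 0 of the 10 were called for the difference between ages, where 0.501% of all features were. Scnn1b was between 3.10 and 3.67 in WT arrays and between 3.26 and 4.10 in Scnn1b-Tg arrays, with replicates 2, 3 and 4 of the Scnn1b-Tg pools above every array median. Its Tg effect passed at neither age (0.61 at PND 10, adjusted p = 0.813, and 0.19 at PND 42, adjusted p = 0.975), so that it does not check the labels of these arrays. At PND 3, outside the comparison, Scnn1b was between 5.365 and 6.03 in Scnn1b-Tg arrays and between 3.09 and 3.55 in WT arrays. The cause of its low level at the later ages was not tested. Xist was near background in all 16 arrays, between 2.98 and 3.37, while 2 of the 3 arrays of each GF genotype had it above 9.

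Of 28940 features, 145 were called for the difference between ages at an adjusted p of 0.05 and 2-fold, 0.501% of those tested. In 101 of them (0.349%) the Tg effect was higher at PND 42 than at PND 10, and in 44 (0.152%) it was lower. The median over all features was -0.03 on the log2 scale. The Tg effect alone was called for 184 features at PND 10 (0.636%) and for 470 at PND 42 (1.62%). From PND 10 to PND 42, 249 features were called in WT (0.860%) and 385 in Scnn1b-Tg (1.33%). These comparisons share their arrays with the difference and stand beside it only to show where it arose.

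More of the called features passed in Scnn1b-Tg cells alone than in WT cells alone. A called feature was named Tg-borne where only Scnn1b-Tg cells passed both limits between PND 10 and 42, WT-borne where only WT cells did, and opposite where both did in opposed directions. Of the 101 features with a higher adult effect, 46 were Tg-borne, 23 WT-borne, 8 opposite and 1 passed in both genotypes in the same direction, while in 23 neither age change passed alone. Of the 44 with a lower adult effect, 18 were Tg-borne, 13 WT-borne, 0 opposite, 2 in the same direction and 11 neither. The change in Scnn1b-Tg cells made up a median of 61.3% of the difference (quartiles 41.0% and 94.1%) on the higher side and 61.8% (22.3% and 99.1%) on the lower side.

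Whether the Tg part and the WT part differed in size was tested with the sum of both age changes, a contrast orthogonal to the one that chose the features, which was added after the data were seen. By this test the Tg part was larger in 49 of the 145 features and the WT part in 20, whereas 3.67% of all features passed it in either direction. For the remaining features the parts could not be ranked. Several of the largest differences had the smaller part in Scnn1b-Tg cells, with a Tg share of 41.0% for Rnase2a, 33.0% for Ccl24, 27.3% for Arg1 and 18.5% for Retnlg.

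**Figure D1:**
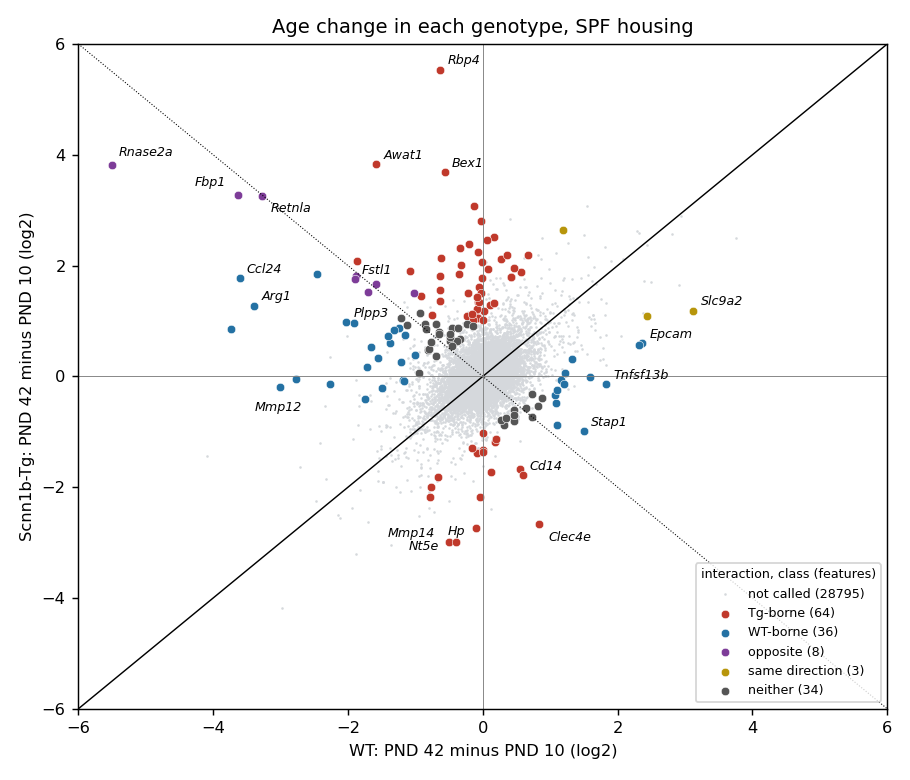
Change from PND 10 to PND 42 (log2) in WT cells on the x axis and in Scnn1b-Tg cells on the y axis, 1 point per feature, with the 145 called features coloured by class and the others in grey. Points on the solid diagonal changed alike in both genotypes, the 64 Tg-borne features passed both limits on the y axis alone, the 36 WT-borne on the x axis alone, and the 8 opposite ones lie in the upper left.

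The largest measured differences belonged to genes that fell in WT and rose in Scnn1b-Tg cells. Rnase2a (also Ear11), a ribonuclease of the eosinophil-associated family, Fbp1, the gluconeogenic fructose bisphosphatase, and Retnla, the resistin-like molecule that marks alternative activation, differed by 9.32, 6.91 and 6.53 on the log2 scale. All 3 were expressed at PND 10 in WT pools, were near background in every adult WT mouse and were high in every adult Scnn1b-Tg mouse. Their promoters are shown because they head the group. That of Ccl17, a chemokine gene of the Tg-borne class, is added, although Rbp4, Awat1 and Bex1 of that class had larger differences. Its WT change of -1.87 did not pass (adjusted p = 0.136). The printed promoters are no sample of the called genes. The window runs from 250 bases before to 50 bases after the annotated start (RefSeq, GRCm38.p6), in the direction of the gene, and capitals mark the motif TTCNNNNGAA, the spacing that STAT6 binds, searched on both strands (the motif is its own reverse complement). Rnase2a lies at chr14:51256063-51256362 on the minus strand, Fbp1 at chr13:62888233-62888532 on the minus strand, Retnla at chr16:48842359-48842658 on the plus strand and Ccl17 at chr8:94810203-94810502 on the plus strand.
Rnase2a: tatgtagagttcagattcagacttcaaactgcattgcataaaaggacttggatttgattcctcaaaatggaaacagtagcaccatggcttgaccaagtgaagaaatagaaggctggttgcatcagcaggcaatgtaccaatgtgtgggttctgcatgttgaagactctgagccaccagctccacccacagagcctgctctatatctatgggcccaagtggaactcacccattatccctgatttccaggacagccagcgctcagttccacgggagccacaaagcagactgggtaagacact
Fbp1: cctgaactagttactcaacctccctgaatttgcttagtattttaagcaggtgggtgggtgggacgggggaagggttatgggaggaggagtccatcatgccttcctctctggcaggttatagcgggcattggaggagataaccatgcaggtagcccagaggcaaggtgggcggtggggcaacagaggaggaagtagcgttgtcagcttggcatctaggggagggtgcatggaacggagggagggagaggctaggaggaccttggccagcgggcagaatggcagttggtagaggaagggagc
Retnla: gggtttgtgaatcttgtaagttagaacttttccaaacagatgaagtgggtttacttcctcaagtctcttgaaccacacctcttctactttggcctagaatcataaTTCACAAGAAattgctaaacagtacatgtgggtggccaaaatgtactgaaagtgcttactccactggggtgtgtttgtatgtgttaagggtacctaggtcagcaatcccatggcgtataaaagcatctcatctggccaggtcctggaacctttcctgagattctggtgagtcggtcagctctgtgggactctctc
Ccl17: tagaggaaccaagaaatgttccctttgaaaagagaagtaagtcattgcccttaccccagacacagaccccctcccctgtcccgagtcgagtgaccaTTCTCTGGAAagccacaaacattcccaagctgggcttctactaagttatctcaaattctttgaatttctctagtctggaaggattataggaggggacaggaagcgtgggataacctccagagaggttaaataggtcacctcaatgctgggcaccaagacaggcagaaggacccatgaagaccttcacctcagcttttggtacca
The motif began 145 bases before the start of Retnla and 154 bases before that of Ccl17, and these letters were not in the windows of Rnase2a and Fbp1. Of the genes called higher, 72 had a promoter in the table, and 9 of their 94 promoters (9.57%) held the motif, against 6.95% of all 32851 promoters. The spacing TTCNNNGAA was in 2 of the 94 (2.13%), against 8.30% of all. On the lower side, 2 of 31 promoters (6.45%) held TTCNNNNGAA. A match is a description of the letters and not a bound site.

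Rnase2a was at 6.08, 8.87, 7.997 and 11.24 in the WT pools at PND 10 and at 3.97, 4.46, 7.09 and 10.01 in the Scnn1b-Tg pools. In the adults it was at 2.94, 3.28, 2.94 and 3.01 in WT and at 10.98, 8.52, 10.87 and 10.43 in Scnn1b-Tg. The genotypes overlapped widely at PND 10, with a Tg effect of -2.17 that did not pass (adjusted p = 0.27), and were fully apart at PND 42, with a Tg effect of 7.15 (adjusted p = 7.32e-07). The fall of 5.50 in WT and the rise of 3.82 in Scnn1b-Tg both passed. The difference between ages was 9.32 ± 1.19 (SE, n = 4 per group, adjusted p = 2.37e-05). Here and below, the SE rests on the spread pooled over all groups of the fit, those outside the comparison included. For Rnase2a the SD was 2.14 in WT and 2.78 in Scnn1b-Tg pools, and 0.16 in WT and 1.14 in Scnn1b-Tg adults. In the groups outside the comparison it lay between 0.14 and 0.44. The pooled SE thus does not show the wider spread of the pools. In the fit to the 16 arrays alone the adjusted p was 0.01.

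Fbp1 followed the same course. Its values were 5.44, 7.59, 5.29 and 9.33 in WT and 3.79, 3.63, 4.79 and 8.04 in Scnn1b-Tg pools at PND 10. At PND 42 they were 3.15, 3.08, 3.46 and 3.43 in WT and 9.06, 6.74, 8.87 and 8.69 in Scnn1b-Tg mice. The WT change of -3.63 and the Tg change of 3.28 had sizes that the test did not tell apart (adjusted p = 0.944).

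Retnla was at 4.74, 7.04, 5.75 and 9.07 in WT and at 3.37, 4.17, 4.41 and 7.42 in Scnn1b-Tg pools at PND 10. In the adults it was at 3.48, 3.69, 3.03 and 3.28 in WT and at 9.61, 6.08, 8.76 and 7.94 in Scnn1b-Tg. WT cells fell by 3.28 and Scnn1b-Tg cells rose by 3.25, for a difference of 6.53 ± 1.03 (adjusted p = 4.52e-04). At PND 3 the WT arrays had Rnase2a between 3.08 and 3.50, Fbp1 between 2.98 and 3.46 and Retnla between 3.34 and 3.76, so that every WT pool at PND 10 stood above every WT array at PND 3 and at PND 42. At PND 0, however, the WT arrays had Retnla at 5.68, 6.28 and 7.49, within the range of the WT pools at PND 10. Rnase2a (2.93, 3.21 and 3.02) and Fbp1 (3.82, 3.85 and 3.78) were low at PND 0.

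Il13, the type 2 cytokine, was among the 8 opposite features. It was at 5.02, 5.29, 4.59 and 5.77 in WT and at 3.37, 3.38, 4.24 and 5.67 in Scnn1b-Tg pools at PND 10, and at 3.33, 3.04, 3.48 and 3.31 in WT and 7.29, 5.92, 4.97 and 5.70 in Scnn1b-Tg adults. The difference between ages was 3.69 ± 0.58 (adjusted p = 4.33e-04), with a fall of 1.88 in WT and a rise of 1.81 in Scnn1b-Tg. Of 8 measured markers of type 2 innate lymphocytes, Il13 itself was the 1 called, where 0.501% of all features were, and the list median was 0.36. The mean level of the 8, Il13 included, lay between 3.95 and 4.35 in WT pools, 4.10 and 4.55 in Scnn1b-Tg pools, 3.64 and 3.74 in WT adults and 4.80 and 4.90 in Scnn1b-Tg adults. The mean was thus highest in Scnn1b-Tg adults, but at PND 10 it reached higher values in Scnn1b-Tg than in WT pools, unlike Il13. The defining marker Gata3 and the cytokine gene Il5 were near background in all 4 groups (group means at most 3.47 and 3.31). The part of such cells in the result was not tested.

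Fstl1, which encodes a secreted follistatin-like glycoprotein, differed from the others in being higher in Scnn1b-Tg at both ages. It was at 6.66, 4.96, 5.84 and 5.15 in WT and 8.55, 8.43, 8.19 and 8.15 in Scnn1b-Tg pools at PND 10, and at 3.66, 3.78, 3.53 and 4.04 in WT and 9.28, 10.36, 10.05 and 10.65 in Scnn1b-Tg adults. The Tg effect grew from 2.68 to 6.33, with 48.0% of the growth in Scnn1b-Tg cells. The other 3 opposite features, named after their values were seen, were Rgcc, a cell cycle regulator (3.25), Aqp9, a glycerol and water channel (3.23), and Ptgir, the prostacyclin receptor (2.53).

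In a second group only the rise in Scnn1b-Tg cells passed. Rbp4, the carrier of retinol in plasma, was at 3.38, 3.71, 3.59 and 6.10 in WT and 3.46, 3.22, 3.50 and 4.14 in Scnn1b-Tg pools at PND 10, and at 3.30, 3.80, 3.57 and 3.58 in WT adults against 8.77, 8.54, 9.53 and 9.63 in Scnn1b-Tg adults. Its rise of 5.54 in Scnn1b-Tg cells made up 89.7% of the difference of 6.17 ± 0.55 (adjusted p = 7.13e-08), and the Tg part was larger than the WT part (adjusted p = 4.49e-07). In 3 of the 4 WT pools Rbp4 was near background, and the fourth had the only raised value among the WT arrays of the ages compared.

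Bex1, a brain-expressed X-linked gene, showed the same picture, with 3.60, 3.75, 3.50 and 6.12 in WT and 4.45, 4.18, 4.00 and 4.56 in Scnn1b-Tg pools, and 3.47, 3.75, 4.01 and 3.47 in WT against 7.80, 8.33, 7.91 and 7.89 in Scnn1b-Tg adults. The difference was 4.25 ± 0.51 (adjusted p = 8.53e-06), with 86.7% in Scnn1b-Tg cells. Awat1, an acyltransferase that makes wax esters, differed by 5.41 ± 0.72 (adjusted p = 4.58e-05), with a rise of 3.83 in Scnn1b-Tg and a WT change of -1.58 that did not pass (adjusted p = 0.115). Rnase2b, the neighbour of Rnase2a in the ribonuclease family, rose by 2.80 in Scnn1b-Tg while the WT change was -0.02. Its WT pools were at 5.53, 5.56, 5.44 and 7.95, so that here too replicate 4 stood apart, and the difference of 2.82 ± 0.53 (adjusted p = 0.005) did not pass in the fit to the 16 arrays alone (0.060).

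Cxcr1, a chemokine receptor, had a WT change of 0.16 (adjusted p = 0.936), with 5.33, 5.82, 6.05 and 5.13 in WT pools and 5.77, 5.51, 5.81 and 5.91 in WT adults. In Scnn1b-Tg cells it went from 6.43, 6.75, 6.21 and 6.597 to 8.67, 8.88, 8.89 and 9.64. The difference was 2.36 ± 0.34 (adjusted p = 1.44e-04). Ccl17, which attracts T cells, was Tg-borne by a small margin, with a rise of 2.09 in Scnn1b-Tg (adjusted p = 0.05) and a WT change of -1.87 (adjusted p = 0.136). Its WT pools spread from 7.65 to 11.90, and the difference of 3.96 ± 0.89 had an adjusted p of 0.024 that became 0.134 when only the 16 arrays were fitted. It passed in 10 of the 16 fits that left out an array (adjusted p up to 0.075), and lost its call without WT PND 10 replicates 2 or 4, WT PND 42 replicate 4, Tg PND 10 replicates 1 or 2 or Tg PND 42 replicate 3.

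**Figure D2:**
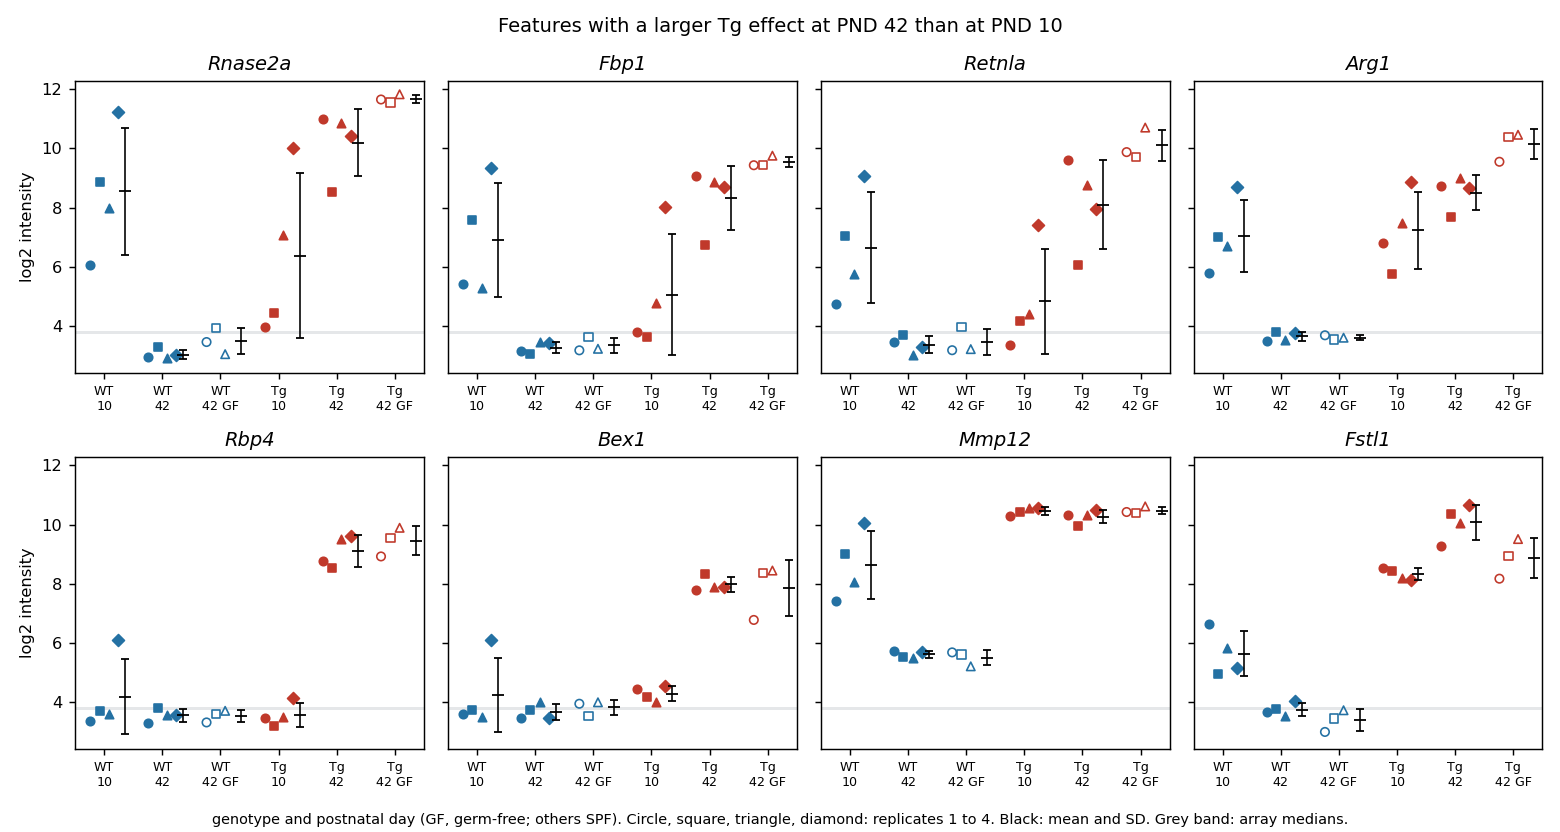
Log2 intensity (y axis) of 8 genes with a higher Tg effect at PND 42, in every array of WT (blue) and Scnn1b-Tg (red) at PND 10 and 42 in SPF housing (filled) and at PND 42 in GF housing (open), with the replicate shown by the marker, the mean and SD in black and the range of array medians as a grey band. Rnase2a, Fbp1, Retnla and Arg1 fall to the grey band in WT adults, Rbp4 and Bex1 are high in Scnn1b-Tg adults, Mmp12 falls in WT, and replicate 4 (diamond) is the highest WT pool at PND 10 for all but Fstl1.

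In the third group the WT level fell from PND 10 to PND 42, and the change in Scnn1b-Tg cells did not pass both limits. Mmp12, macrophage elastase, is the plainest case. It was at 10.29, 10.44, 10.57 and 10.57 in Scnn1b-Tg pools and at 10.33, 9.95, 10.33 and 10.48 in Scnn1b-Tg adults, a change of -0.20 (adjusted p = 0.91). In WT cells it went from 7.41, 8.99, 8.06 and 10.06 to 5.72, 5.54, 5.51 and 5.70, a fall of 3.02 (adjusted p = 7.83e-06). The Tg effect thus went from 1.84 to 4.66, and the WT part was the larger (adjusted p = 1.47e-04).

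Arg1, the arginase of alternative activation, was at 5.80, 7.02, 6.71 and 8.70 in WT and 6.81, 5.77, 7.50 and 8.87 in Scnn1b-Tg pools, which overlapped (Tg effect 0.18, adjusted p = 0.969). In the adults it was at 3.51, 3.82, 3.55 and 3.78 in WT and 8.72, 7.68, 8.99 and 8.66 in Scnn1b-Tg (Tg effect 4.85, adjusted p = 4.40e-06). The fall of 3.39 in WT passed and the change of 1.28 in Scnn1b-Tg did not (adjusted p = 0.351). The difference was 4.67 ± 0.90 (adjusted p = 0.007).

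Ccl24, a chemokine for eosinophils, was at 4.78, 6.23, 5.94 and 9.43 in WT and 3.81, 4.16, 6.46 and 8.27 in Scnn1b-Tg pools, and at 3.03, 3.03, 2.95 and 2.94 in WT against 9.11, 4.92, 8.35 and 7.42 in Scnn1b-Tg adults. Its difference of 5.38 ± 1.12 (adjusted p = 0.013) did not pass in the fit to the 16 arrays alone (adjusted p = 0.145). Alox15, a lipoxygenase that oxidises arachidonic acid, differed by 4.30 ± 0.84 (adjusted p = 0.008), with an adjusted p of 0.042 in the 16 arrays alone and of 0.066 there with the replicate block. Retnlg, the resistin-like molecule of myeloid cells, differed by 4.59 ± 1.05 (adjusted p = 0.027), but passed in only 6 of the 16 fits that left out an array, with adjusted p up to 0.089, and not in the fit to the 16 arrays alone (0.069). The arrays whose loss ended the call were WT PND 10 replicates 2 and 4, WT PND 42 replicates 1, 2 and 3, Tg PND 10 replicates 1, 2 and 3 and Tg PND 42 replicates 1 and 3.

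Plpp3, a lipid phosphate phosphatase, and Mfge8, the bridge between apoptotic cells and phagocytes, were higher in Scnn1b-Tg at both ages. Plpp3 was at 6.66, 6.34, 5.99 and 6.61 in WT and 8.37, 8.55, 8.10 and 7.88 in Scnn1b-Tg pools, and at 4.33, 4.77, 4.08 and 4.32 in WT and 9.18, 9.05, 8.96 and 9.62 in Scnn1b-Tg adults. WT cells fell by 2.03 while Scnn1b-Tg cells rose by 0.98, which passed the adjusted p (0.007) but not 2-fold, and the difference was 3.00 ± 0.32 (adjusted p = 9.45e-07). Mfge8 fell by 1.66 in WT and changed by 0.52 in Scnn1b-Tg (adjusted p = 0.447), for a difference of 2.18 ± 0.42 (adjusted p = 0.007).

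Of the 23 features in which neither age change passed both limits, the largest with a gene name were Cxcr2, a neutrophil chemokine receptor (2.26), Adam19, a membrane metalloprotease (2.09), P2ry1, an ADP receptor (2.06), Chchd10, a mitochondrial protein (1.80), and Abcg2, an efflux transporter (1.70). In each of the 5, WT cells moved down and Scnn1b-Tg cells moved up, with 45.2% to 55.2% of the difference in Scnn1b-Tg. The call of Cxcr2 held in 7, that of Adam19 in 5 and that of P2ry1 in 12 of the 16 fits that left out an array, with adjusted p up to 0.080, 0.102 and 0.065. Cxcr2 lost its call without WT PND 10 replicates 2 or 3, WT PND 42 replicates 1 or 4, Tg PND 10 replicates 2, 3 or 4 or Tg PND 42 replicates 1 or 2. Adam19 lost it without WT PND 10 replicates 3 or 4, WT PND 42 replicates 1, 2 or 4, Tg PND 10 replicates 1, 2 or 3 or Tg PND 42 replicates 1, 3 or 4, and in the fit to the 16 arrays alone (adjusted p = 0.076). P2ry1 lost it without WT PND 10 replicate 4, Tg PND 10 replicates 2 or 3 or Tg PND 42 replicate 4.

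On the lower side, the largest difference was an early Tg effect that did not pass in the adult. Clec4e (Mincle), a receptor for microbial glycolipids and dying cells, was at 9.94, 9.83, 9.91 and 9.92 in Scnn1b-Tg pools against 6.79, 5.70, 7.46 and 5.76 in WT pools. In the adults it was at 7.12, 7.21, 7.32 and 7.26 in Scnn1b-Tg and 7.45, 7.40, 7.07 and 7.15 in WT. The Tg effect was 3.47 at PND 10 and -0.04 at PND 42, and the difference of -3.51 ± 0.50 (adjusted p = 1.18e-04) lay to 76.1% in Scnn1b-Tg cells.

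Cd14, the co-receptor for bacterial endotoxin, was above WT at PND 10 and below it at PND 42. It was at 9.40, 9.69, 9.59 and 9.60 in Scnn1b-Tg and 8.01, 7.74, 7.75 and 7.85 in WT pools, and at 7.62, 7.92, 7.99 and 7.59 in Scnn1b-Tg and 8.48, 8.42, 8.48 and 8.32 in WT adults. The genotypes did not overlap at either age. The Tg effect was 1.73 (adjusted p = 2.34e-08) at PND 10 and -0.65 (adjusted p = 0.008) at PND 42, and the difference was -2.38 ± 0.21 (adjusted p = 7.13e-08).

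Hp (haptoglobin), an acute phase protein that binds haemoglobin, was at 6.54, 7.25, 7.36 and 6.41 in Scnn1b-Tg pools and between 3.46 and 4.44 in the other 12 arrays. Mmp14, a membrane-type metalloproteinase, was higher in Scnn1b-Tg at both ages but less so in the adult, with 8.59, 8.68, 8.78 and 8.37 in Scnn1b-Tg pools and 5.75, 4.73, 5.93 and 6.05 in Scnn1b-Tg adults, while the highest WT array was at 5.0. Its Tg effect went from 4.34 to 1.85, and the difference of -2.49 ± 0.57 (adjusted p = 0.030) passed in 6 of the 16 fits that left out an array (adjusted p up to 0.086). The loss of any WT PND 10 replicate but 1, any WT PND 42 replicate but 4, any Tg PND 10 replicate but 4 or Tg PND 42 replicate 2 ended the call. Abca1, the cholesterol efflux transporter, fell by 1.73 in Scnn1b-Tg cells, and its Tg effect went from 1.37 (adjusted p = 1.10e-05) to -0.48 (adjusted p = 0.140).

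Nt5e (CD73), which makes adenosine at the cell surface, and Emb (embigin), a membrane partner of lactate transporters, fell below WT in the adult Scnn1b-Tg cells. Nt5e was at 8.44, 8.34, 8.08 and 7.57 in Scnn1b-Tg pools and 5.80, 5.62, 4.81 and 4.23 in Scnn1b-Tg adults, while the WT level was 7.13, 7.96, 7.67 and 7.23 and then 7.13, 7.001, 7.11 and 7.15. The Tg effect was 0.61 at PND 10 (adjusted p = 0.382) and -1.98 at PND 42 (adjusted p = 9.49e-06), and the difference was -2.59 ± 0.39 (adjusted p = 1.96e-04). Emb fell by 2.17 in Scnn1b-Tg cells with a WT change of -0.03, for a difference of -2.14 ± 0.27 (adjusted p = 2.13e-05). Cxcl14, a chemokine, went from a Tg effect of 1.22 to one of -1.01, both of which passed (adjusted p = 0.029 and 0.049). Tgfbi, a matrix protein, fell by 1.02 and Bnip3, a mitophagy receptor, by 1.18 in Scnn1b-Tg cells. Tgfbi was just past 2-fold with -1.03 and lost its call without WT PND 10 replicate 4, WT PND 42 replicate 3, Tg PND 10 replicate 3 or Tg PND 42 replicate 4, where the value was down to -0.89.

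**Figure D3:**
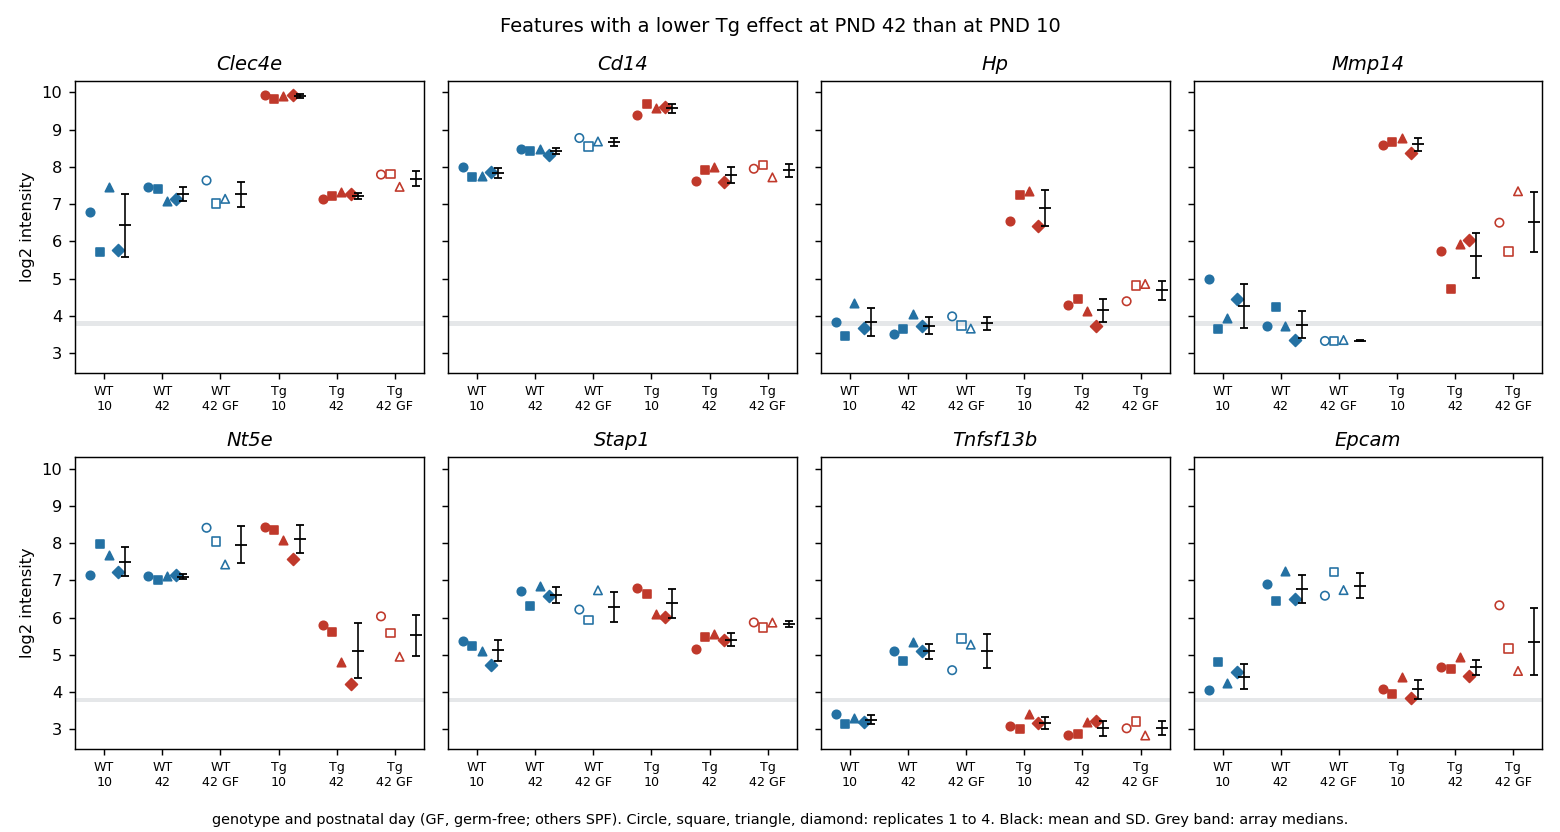
Log2 intensity (y axis) of 8 genes with a lower Tg effect at PND 42 than at PND 10, drawn as in the plot of genes with a higher adult effect. Clec4e, Cd14, Hp and Mmp14 are highest in the 4 Scnn1b-Tg pools at PND 10, Nt5e is lowest in Scnn1b-Tg adults, and Tnfsf13b and Epcam are raised in WT adults.

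In the WT-borne genes of the lower side the rise in WT cells passed both limits between PND 10 and 42 and the change in Scnn1b-Tg cells did not. Tnfsf13b (BAFF), the survival factor of B cells, was near background in both groups of pools and in Scnn1b-Tg adults, between 2.84 and 3.41, and at 5.09, 4.84, 5.35 and 5.10 in WT adults. Its difference was -1.97 ± 0.24 (adjusted p = 1.38e-05), and a second feature of the gene was WT-borne too. Epcam, an epithelial adhesion molecule, rose in WT from 4.06, 4.81, 4.23 and 4.54 to 6.91, 6.43, 7.25 and 6.501, and was at 4.08, 3.95, 4.42 and 3.84 and then 4.67, 4.63, 4.93 and 4.44 in Scnn1b-Tg. None of the other 8 of 9 epithelial markers was called, where 0.501% of all features were. The mean level of the list lay between 4.86 and 5.26 in all 16 arrays.

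Stap1, an adaptor of tyrosine kinase signalling, crossed over. It was at 6.79, 6.63, 6.11 and 6.00 in Scnn1b-Tg and 5.38, 5.25, 5.10 and 4.73 in WT pools, and at 5.16, 5.48, 5.56 and 5.40 in Scnn1b-Tg and 6.71, 6.32, 6.84 and 6.57 in WT adults. The Tg effect of 1.27 at PND 10 and that of -1.21 at PND 42 both passed (adjusted p = 6.64e-05 and 4.30e-05). Stap1 and Cxcl14 were the 2 called features whose Tg effect passed both limits at both ages with opposite sign. Clec12a, an inhibitory lectin receptor, rose by 1.10 in WT, and its difference of -1.97 (adjusted p = 0.016) had an adjusted p of 0.053 without WT PND 10 replicate 4. Tgfb2, a TGF-beta ligand, rose by 1.21 in WT and changed by 0.06 in Scnn1b-Tg, but its mean was near background in every group except WT adults.

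Slc9a2, a sodium-proton exchanger, and Pnpla5, a lipase, rose in both genotypes, but less in Scnn1b-Tg. Slc9a2 rose from 3.35, 3.14, 3.04 and 3.24 to 6.32, 6.21, 6.39 and 6.36 in WT, and from 3.60, 3.37, 3.30 and 3.22 to 4.98, 5.13, 4.34 and 3.79 in Scnn1b-Tg. Pnpla5 rose by 2.43 in WT and by 1.09 in Scnn1b-Tg, for a difference of -1.35 ± 0.27 (adjusted p = 0.010). The means of Slc9a2 and Pnpla5 were near background in the pools of both genotypes.

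Seen by age, the higher side was mostly an adult effect. Of its 101 features, 85 had a called Tg effect of the same sign at PND 42 and none at PND 10, 5 were higher in Scnn1b-Tg at both ages (Fstl1, Plpp3, Mfge8, Mmp12 and Slamf7), 2 were called at PND 10 alone (Haspin and Kcnh4, lower in Scnn1b-Tg) and 9 at neither age. Of the 44 on the lower side, 20 were lower in Scnn1b-Tg at PND 42 alone, 12 were higher in Scnn1b-Tg at PND 10 alone, 2 were called at both ages with opposite signs, Mmp14 was higher at both, and 9 were called at neither. Slamf7, Haspin and Kcnh4 are named here after their values were seen. The plot of both Tg effects shows this for the named genes.

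**Figure D4:**
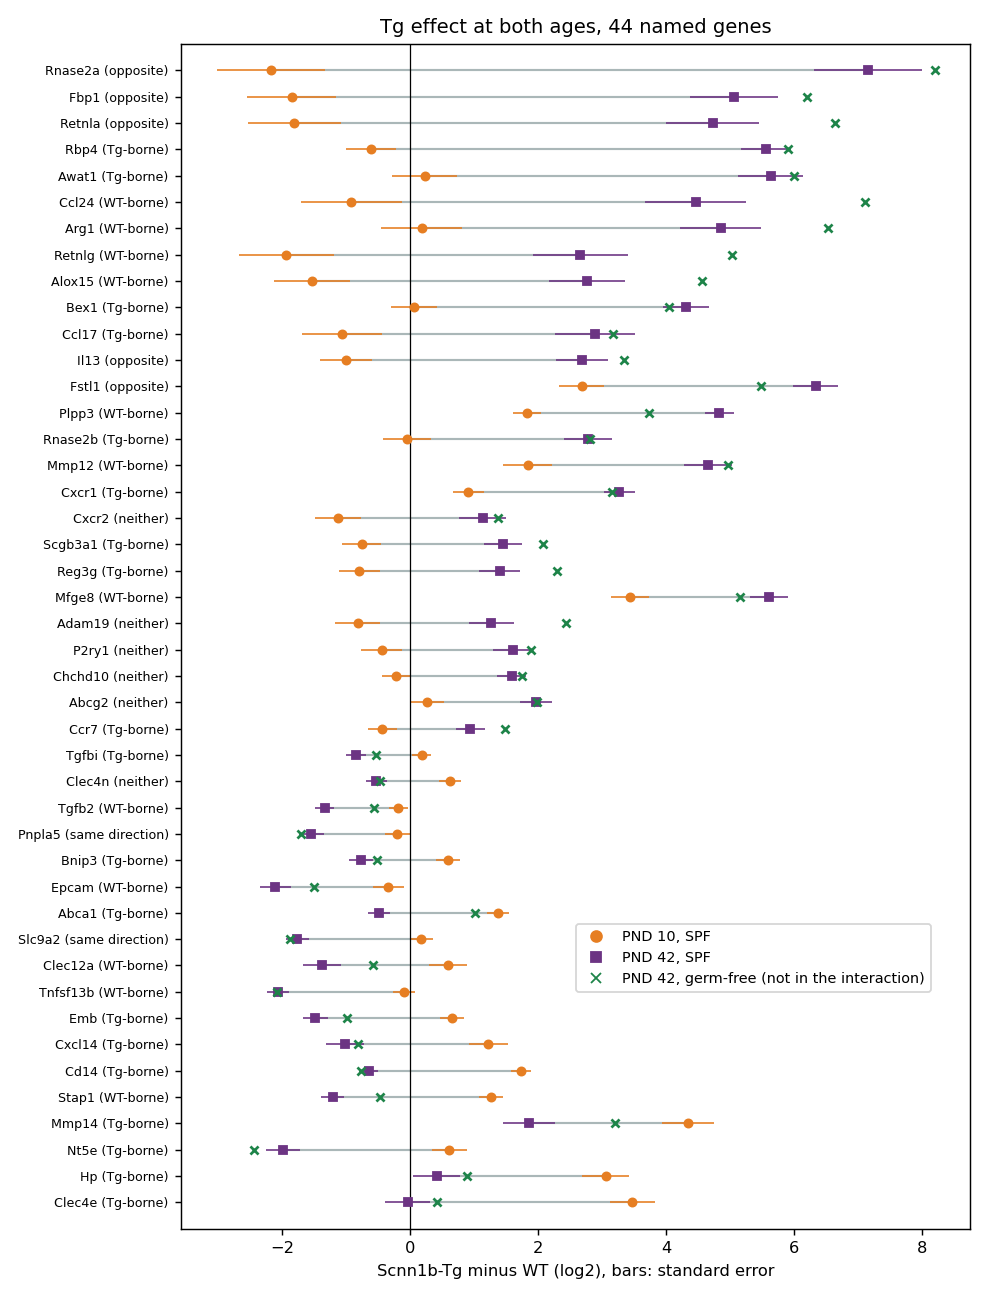
Scnn1b-Tg minus WT (log2, x axis) at PND 10 (circles) and PND 42 (squares) in SPF housing with standard errors, and at PND 42 in GF housing (crosses), for the 44 called genes that the rule names, ordered by the difference between ages and with their class in brackets. From Rnase2a to Cxcr2 and beyond the squares lie right of the circles, and in the lower rows the squares of Clec4e and Hp lie near 0 while those of Nt5e and Tnfsf13b lie below it.

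The 6 GF arrays gave a second adult measure. They are not part of the difference itself, but they share the fit whose spread decided the calls. Of the 101 features with a higher adult effect, 83 (82.2%) were called higher in Scnn1b-Tg in GF mice, where 1.85% of all features were, and 0 were called lower. This held for 40 of the 46 Tg-borne, 22 of the 23 WT-borne and 8 of the 8 opposite features. Of the 44 with a lower adult effect, 13 (29.5%) were called lower in GF mice, against 0.397% of all features, and 3 were called higher: Mmp14 (3.19), Lpcat2, an acyltransferase of phospholipids (1.08), and Abca1 (1.01). Among the lower Tg-borne features only 2 of 18 were called lower, and the median Tg effect in GF adults was -0.13 there.

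The GF adults showed the same contrast in single arrays. GF WT mice had Rnase2a at 3.46, 3.93 and 3.06 and Arg1 at 3.69, 3.54 and 3.61, and GF Scnn1b-Tg mice had them at 11.65, 11.55 and 11.83 and at 9.55, 10.39 and 10.46. Rbp4 was at 3.32, 3.61 and 3.72 in GF WT and at 8.93, 9.55 and 9.89 in GF Scnn1b-Tg mice. Tnfsf13b was at 4.59, 5.43 and 5.27 in GF WT and at 3.03, 3.21 and 2.83 in GF Scnn1b-Tg mice. Clec4e, at 7.63, 7.01 and 7.14 against 7.79, 7.80 and 7.46, had no Tg effect that passed (0.43, adjusted p = 0.771).

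The gene lists gave the wider pathways. Of 26 alternative activation genes measured, 7 were called higher and 0 lower, against 0.349% and 0.152% of all features (Retnla, Ccl24, Arg1, Alox15, Ccl17, Mmp12 and Trem2, the lipid-sensing receptor, at 1.01), with a list median of 0.86 against -0.03 over all features. At PND 10, 1 of the 26 was called for the Tg effect (0.636% of all features) and at PND 42 it was 12 (1.62%), all higher in Scnn1b-Tg. The paper names the 7 called genes, and also Mrc1 and Chil4, among M2 markers raised in these Scnn1b-Tg macrophages. The count of 7 is therefore not independent of what was known of these arrays. Other members were not called: Mrc1, the mannose receptor, had a difference of 0.11 (adjusted p = 0.981), Chil3, the chitinase-like protein Ym1, one of 0.16 (adjusted p = 0.998), and Chil4 one of 0.75 (adjusted p = 0.479). Chil3 was bright in all 16 arrays, between 11.61 and 12.52. Of the 15 measured genes of the IL-4 and IL-13 axis, Il13 alone was called. Il4 was near background in all groups, with a difference of 0.93 (adjusted p = 0.487), and the receptor chain Il4ra and the transcription factor Stat6 differed by -0.06 and 0.16 (adjusted p = 1 and 0.962).

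Of 5 measured ribonucleases of the eosinophil-associated and related families, Rnase2a and Rnase2b were called, out of 14 names in the list. Of 15 CC chemokines, Ccl24 and Ccl17 were called higher and 0 lower. Over all features, 0.349% were called higher and 0.152% lower, the shares to set beside each list here. Of 16 matrix metalloproteinases and inhibitors, Mmp12 was called higher and Mmp14 lower, and of 16 genes of the activin, TGF-beta and BMP pathway, Fstl1 was called higher and Tgfb2 and Tgfbi lower. Inhba, the activin A subunit, had a Tg effect of 4.87 at PND 10 and of 4.89 at PND 42, both of which passed, and a difference of 0.02 ± 0.70 (adjusted p = 1), so that the pathway held both genes whose Tg effect changed with age and 1 whose estimate was nearly the same.

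Of 20 innate pattern receptors, 3 were called lower (Clec4e, Cd14 and Clec4n, the lectin receptor Dectin-2, at -1.15) and 0 higher, against 0.152% and 0.349% of all features. Of 26 classical activation genes, Cxcr1 alone was called, and the list median was -0.02. Cxcl2, a neutrophil chemokine, was at 9.93, 9.15, 9.88 and 10.43 in Scnn1b-Tg pools and 7.06, 7.11, 7.41 and 7.77 in Scnn1b-Tg adults, but with a difference of -1.56 ± 0.50 (adjusted p = 0.244) it was not called, and 0 of the 7 chemokines of its list were. Acod1, which makes itaconate, went from 7.77, 7.28, 7.37 and 7.13 to 5.47, 3.99, 5.54 and 4.95 in Scnn1b-Tg, with WT arrays between 3.37 and 3.87. Its difference of -2.53 ± 0.76 had an adjusted p of 0.180 over all 36 arrays and of 0.003 in the fit to the 16 arrays. Abca1 was the 1 called member of 18 lipid handling genes, Cd14 that of 21 monocyte and recruited macrophage genes, and Bnip3 that of 27 hypoxia and glycolysis genes.

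Of the 40 lists, 23 had 0 called members. With 0.501% of all features called, a count of 0 in lists of this size does not set them apart. They include NF-kB targets (18 genes, median -0.16), MHC class II (11, 0.17), cholesterol synthesis (18, 0.44), fatty acid synthesis (14, 0.02), mitosis (26, 0.09), DNA replication (25, 0.11), lysosome (25, 0.10), alveolar macrophage identity (24, 0.15), interferon-stimulated genes (24, 0.02), complement (10, 0.24) and Nrf2 targets (19, -0.11). Siglecf, the lectin that marks alveolar macrophages, had a difference of -0.37 (adjusted p = 0.899).

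**Figure D5:**
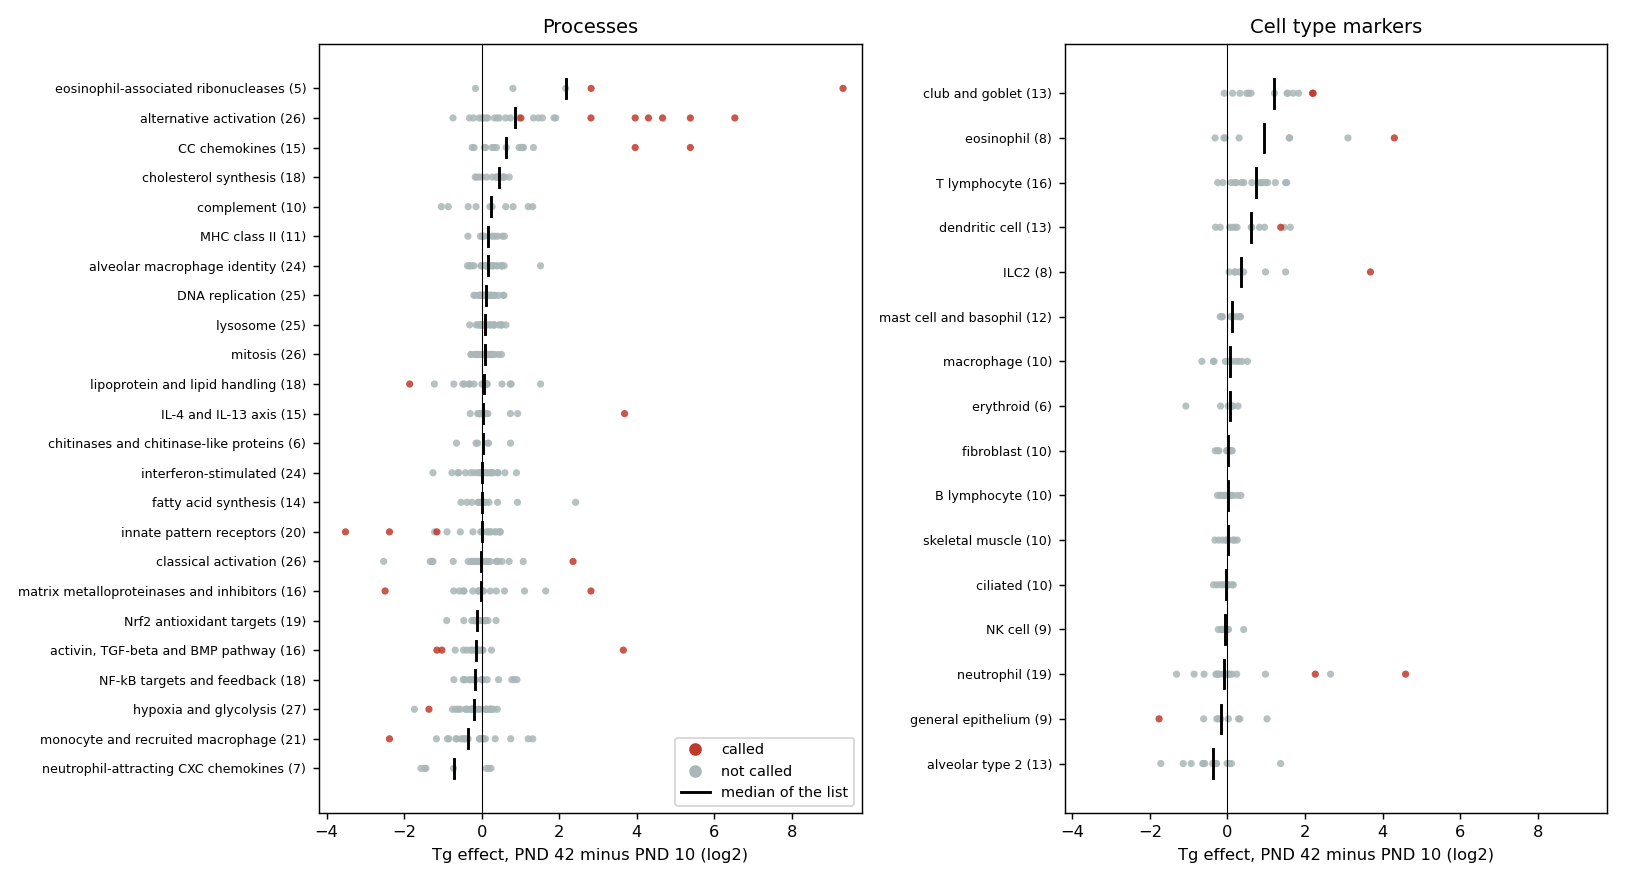
Difference of the Tg effect between PND 42 and PND 10 (log2, x axis) for each measured member of 24 process lists (left) and 16 cell type marker lists (right), with called members in red, the others in grey, the list median as a black bar and the number of measured members in brackets. Called members sit far to the right for the ribonucleases, alternative activation and CC chemokines and to the left for pattern receptors, while most lists gather around 0.

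Markers of other cells moved with some of these genes, and their part in the results was not tested. The Ly-6G depletion was meant to remove granulocytes, eosinophils and neutrophils among them. The mean level of 8 eosinophil markers lay between 3.42 and 4.62 in WT pools, 3.19 and 4.10 in Scnn1b-Tg pools, 3.11 and 3.26 in WT adults and 3.47 and 4.65 in Scnn1b-Tg adults. At PND 10 its order among the replicates was the order of Rnase2a in both genotypes, but replicate 4 was the highest pool for most features called higher. In the paper's cell counts, eosinophils were absent from the purified WT fractions at PND 10. They were present in some of the counted Scnn1b-Tg fractions at PND 10 and in all at PND 42. The highest Scnn1b-Tg percentages were at PND 10, where a further fraction could not be counted. Alox15, itself part of the mean, was the 1 called member, where 0.501% of all features were called. Prg2, a granule protein, was at 3.27, 5.63, 4.32 and 5.99 in WT pools and 5.92, 3.83, 5.47 and 3.85 in Scnn1b-Tg adults, with a difference of 3.11 (adjusted p = 0.129), whereas the defining markers Epx and Prg3 were near background in all 4 groups, with single arrays between 2.99 and 3.37 for Epx and between 2.81 and 3.88 for Prg3. In bulk RNA, fewer cells of a type and less RNA per cell cannot be told apart.

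The mean of 13 club and goblet markers lay between 3.74 and 4.94 in WT pools, with replicate 4 highest, between 3.77 and 4.13 in Scnn1b-Tg pools, 4.03 and 4.30 in WT adults and 4.62 and 5.34 in Scnn1b-Tg adults. Scgb3a1, an airway secretoglobin, and Reg3g, an antibacterial lectin, were called with 2.21 and 2.19 (the call of Scgb3a1 was lost after quantile normalization over the 16 arrays, adjusted p = 0.053, and in the 16 arrays with the replicate block, 0.095), and Scgb1a1, the club cell secretoglobin, had a difference of 1.54 (adjusted p = 0.470). The mean of 16 T lymphocyte markers was between 4.42 and 4.999 in Scnn1b-Tg adults and between 3.83 and 4.21 in the other 3 groups, with 0 called. That of 13 dendritic cell markers was between 5.10 and 5.45 in Scnn1b-Tg adults and between 4.34 and 4.85 elsewhere, with Ccr7, the receptor for homing to lymph nodes, called at 1.37. Ccr7 held its call in 6 of the 16 fits without an array (adjusted p up to 0.108), and lost it without WT PND 10 replicates 1, 2 or 4, WT PND 42 replicates 1, 2 or 4, Tg PND 10 replicates 1 or 2 or Tg PND 42 replicates 3 or 4. The mean of 19 neutrophil markers lay between 4.48 and 4.93 in WT pools, 4.38 and 5.002 in Scnn1b-Tg pools, 4.05 and 4.12 in WT adults and 4.23 and 4.65 in Scnn1b-Tg adults, with Retnlg and Cxcr2 called. The defining markers S100a8 and S100a9 differed by 0.98 and 2.66 (adjusted p = 0.586 and 0.549). B lymphocyte, NK cell, mast cell, ciliated, erythroid, fibroblast, muscle and alveolar type 2 lists had 0 called members. Over all features, 0.501% were called.

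Replicate 4 stood out on the higher side. It was the highest WT pool for 62 of the 101 features and the highest Scnn1b-Tg pool for 53, where it was highest for 27.4% and 24.3% of all features. Without replicate 4 of both genotypes, a setting chosen after the data were seen, 81 features were called higher and 35 lower, and 101 of the 145 calls remained. Rnase2a, Fbp1, Retnla and Arg1 then differed by 9.63, 7.10, 6.58 and 4.66, with adjusted p of 1.88e-08, 1.88e-08, 1.03e-05 and 0.004, and Rbp4 and Bex1 by 5.73 and 3.71. Cxcr2, Adam19, Abcg2, Mmp14 and Tgfbi did not pass there (adjusted p = 0.064, 0.051, 0.054, 0.059 and 0.054). The fit to the 16 arrays alone weakened the largest differences. Its adjusted p was 0.01 for Rnase2a (main fit 2.37e-05), 0.02 for Fbp1 (9.09e-05) and 0.027 for Retnla (4.52e-04). For Arg1 it was 0.011 (0.007) and for Il13 0.015 (4.33e-04). These genes kept their call. Abcg2 and Mmp14 moved the other way, from 0.015 and 0.03 to 0.004 and 0.008. At PND 42, replicate 4 was the highest Scnn1b-Tg mouse for 57 of the 101 features (25.3% of all features), and without it 66 features were called higher and 33 lower. Of the 44 named genes that were called, 27 kept their call in all 32 alternative settings and 35 in each of the 16 fits that left out an array.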

How the data were processed

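The authors deposited log2 intensities of Affymetrix Mouse Gene 1.0 ST arrays, made in Partek 6.5 (per the labels) with RMA, that is sequence-adjusted background, quantile normalization and median polish, as 1 value per transcript cluster, here a feature. Of 35556 features, 6616 without annotation that are numbered below the first annotated one were presumed controls and left out. Of the other 28940, 21218 had 1 gene symbol, 1881 several and 5841 none. No column was unused (0). The feature with the highest mean over the 16 arrays stood for a gene.

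All 36 arrays entered a single model in limma 3.58.1 (R 4.3.3), each of the 10 groups having its own mean, and the contrasts were tested two-sided with moderated statistics and Benjamini-Hochberg adjustment over the 28940 features. Calls needed both an adjusted p of 0.05 and 2-fold, and a single gene is said to rise or fall where its own contrast passed the adjusted p. Labels call the arrays biological replicates. The procedure was tested on simulated data.

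Named genes carried 1 symbol, with predicted genes, clones and RIKEN entries passed over: the 12 largest called differences of each sign, the 5 largest of each class, up to 4 called members of a list and a fixed set of 26 genes. The 24 process and 16 cell type lists came from general knowledge, but the activation lists also hold genes that the paper names from these arrays. Of the lists, 3 had under 80% of their names measured (eosinophil-associated ribonucleases, complement and erythroid). Comparison, lists and named set were chosen with earlier results of these data known. Alternatives changed the limits, the arrays, the variance model, the normalization, the filter, the features per gene, a replicate block and an Xist term. Ly6g is not analysed here. The number of arrays limits the precision.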

Additional observations from a re-analysis of the deposited data

Results flagged for a closer look

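The Tg effect differed between PND 10 and PND 42 for 145 features by the test of the difference itself, which is the comparison of the report. Among the 176 groups of 4 arrays of the 44 called named genes, 13 had a highest or lowest array whose gap to the next exceeded Dixon's critical value for the group's range. Chance alone flags about 1 group in 20.

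Of these 13, 4 were replicate 4 at PND 10. In WT it had Rbp4 at 6.10 (next 3.71), Bex1 at 6.12 (next 3.75) and Rnase2b at 7.95 (next 5.56), and in Scnn1b-Tg it had Awat1 at 7.503 (next 6.07). In Scnn1b-Tg adults, Fbp1 was low in replicate 2 with 6.74 (next 8.69), Clec12a was low in replicate 4 with 5.49 (next 6.79), P2ry1 was high in replicate 4 with 5.79 (next 4.63) and Ccl17 was high in replicate 3 with 11.33 (next 10.76).

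In WT adults, replicate 3 had Emb at 8.39 (next 8.05), Tgfbi at 11.04 (next 10.82) and Ccr7 at 5.86 (next 5.34) as highest values and Rnase2b at 5.76 (next 6.17) as the lowest. In Scnn1b-Tg pools, replicate 3 had Tgfbi highest at 11.20 (next 11.00).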

How the results depend on the processing

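The direction of all 44 called named genes held in all 32 alternative settings (0 reversals), and of 1405 values 1295 kept and 110 lost their call. With the adjusted p alone, 105 features were Tg-borne, 14 opposite, 7 in the same direction and 9 neither. At 1.5-fold 14 were opposite and 7 in the same direction. At an adjusted p of 0.01, 52 features were called higher and 19 lower, with 36 Tg-borne, 19 WT-borne and 7 neither. The fit to the 16 arrays alone left 5 opposite and quantile normalization over them 4. Leaving out 1 array gave 66 to 115 higher and 31 to 49 lower calls, 43 to 83 Tg-borne, 26 to 37 WT-borne, 6 to 13 opposite, 2 to 3 in the same direction and 16 to 36 neither. The lowest counts came without Tg PND 42 replicate 4 (66 higher) and without WT PND 10 replicate 4 (31 lower), and without Tg PND 10 replicate 4 there were 13 opposite. The cause was not tested. Median centring gave 103 higher and 42 lower calls. The filter on dim features kept 11416 features and called 113 higher and 48 lower.

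Whether replicate numbers pair the arrays could not be settled, since differently numbered arrays were not correlated for comparison. Deviations of same-numbered WT and Scnn1b-Tg arrays correlated between -0.02 and 0.24 at PND 10, with 0.24 for replicate 4, and between -0.10 and 0.02 at PND 42. With the replicate block 105 features were called higher and 43 lower, with 68 Tg-borne, 37 WT-borne, 8 opposite, 3 in the same direction and 32 neither, and 139 of the 145 calls remained. The block and the 16 arrays together, added after the data were seen, gave 115 and 62. The block fits a single effect per replicate number over all groups, so it cannot tell whether the pools at PND 10 alone were paired.

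The Xist term could not be fitted for Xist itself. Values at or near the array medians carry little signal over background, which limits the precision of differences against such groups.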
